A study of Homo sapiens with 4 samples.

Results

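The genes described here are the aryl hydrocarbon receptor gene *AHR*, its partner *ARNT*, its repressor *AHRR*, and the target genes *CYP1A1*, *CYP1A2*, *CYP1B1*, *TIPARP* and *NQO1*. They were found by symbol in GENCODE 44 and make up 8 of its 20046 protein-coding genes and of its 62700 annotated genes. For each gene, every FLI1 ChIP-seq peak within 3 kb of an annotated transcription start site (TSS), in the gene body, or within 50 kb of the gene was taken. The study asked how the ETS transcription factor FLI1 in tumour cells acts on kynurenine production under interferon gamma (IFN-γ). The cells were HK1, an established nasopharyngeal carcinoma line, made to overexpress Flag-tagged FLI1, and they received PBS (the control) or IFN-γ for 24 h. Chromatin was pulled down with an antibody to Flag, so the peaks are those of the overexpressed protein in 1 line, and neither condition lacked it. There was 1 Flag library per condition, so no SD could be given and the treatment could not be tested. The input libraries are not analysed here. No expression was measured in these files, and the T cells in which the study read out receptor activity are other cells than these.

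The aryl hydrocarbon receptor is a transcription factor of the bHLH-PAS class that waits in the cytosol in a complex with HSP90 and p23 until a ligand binds. Dioxins, polycyclic aromatic hydrocarbons and the tryptophan metabolite kynurenine are ligands. The bound receptor moves to the nucleus, pairs with ARNT and binds the xenobiotic response element (XRE), whose core is GCGTG. Its best known targets are the CYP1 monooxygenases, the ADP-ribosyltransferase TIPARP and the repressor AHRR, and the last 2 limit the receptor in turn. FLI1, like other ETS factors, binds the core GGAA, and tandem repeats of GGAA are best known as sites of its Ewing sarcoma fusion.

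The control list held 30819 peaks and the IFN-γ list 39654. The authors' fold enrichment is the fragment pileup at a peak's summit plus 1 over the local background plus 1, so the whole-number pileup behind each summit could be solved from the fold and the −log10 p. Median pileups were 16 and 22 fragments. The lowest backgrounds differed by 1.46 times, which was taken as the relative depth of the IFN-γ library. Where a control and an IFN-γ peak overlapped by at least 1 bp (a shared peak), the IFN-γ pileup over the control pileup was divided by that depth, and the ratio is given with an exact Clopper-Pearson 95% interval. These intervals cover counting error only, not the variation between cultures. A site without a peak fell below the threshold for calling, and may still have been bound.

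FLI1 peaks lay within 3 kb of a TSS of 7 of the 8 genes in each library, the same 7 in both. *CYP1A2* was the exception. Among all protein-coding genes, 61.9% had such a promoter peak in the control library, 59.7% in the IFN-γ library and 56% in both. All 8 genes had at least 1 peak in the gene body or within 50 kb in each library, against 85.8% and 88.8% of protein-coding genes. Counted once each, there were 37 peaks at these genes in the control library, of which 29 (78.4%) overlapped an IFN-γ peak, and 45 in the IFN-γ library, of which 29 (64.4%) overlapped a control peak. Over the whole lists the shares were 77.5% and 61%. A share near that of the whole list is no result about these genes. The windows also reach into neighbouring genes: the nearest protein-coding TSS belonged to 1 of the 8 genes for 25 of the 37 control peaks and 32 of the 45 IFN-γ peaks. In each library 12 peaks lay within 3 kb of a TSS of another coding gene. The 12 include the promoter peaks of *AHR* itself, where the coding gene ENSG00000283321 overlaps it. In the IFN-γ library the TSS of that gene was also the nearest coding one to these peaks.

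**Figure D1:**
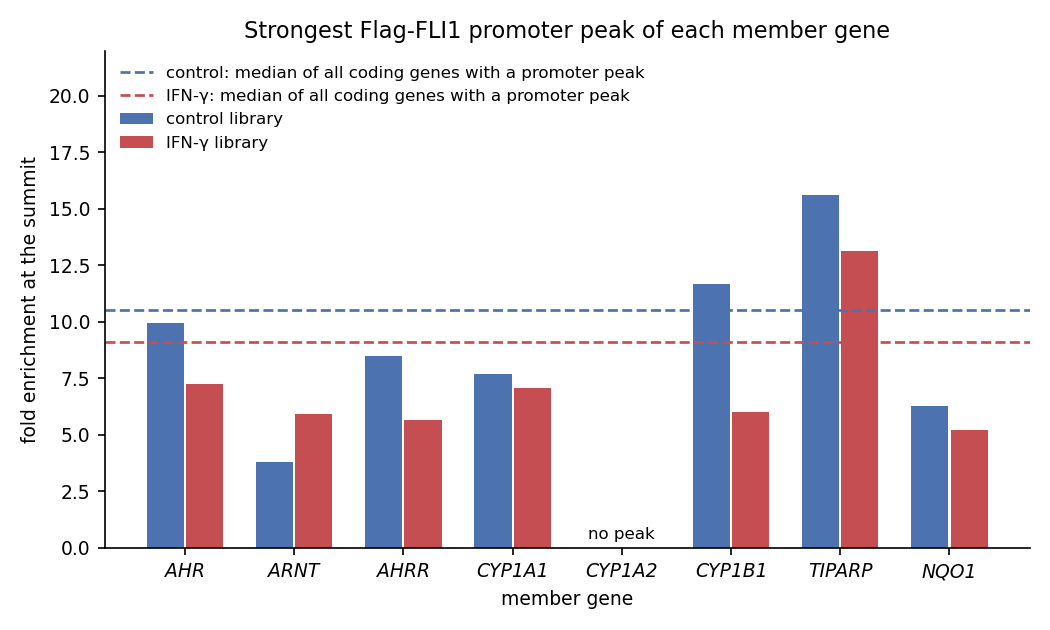
Fold enrichment at the summit of the strongest peak within 3 kb of a TSS of each gene in the control (blue bars) and IFN-γ (red bars) libraries, 1 library each, with dashed lines at the medians over all coding genes that had a promoter peak (10.5 and 9.12). *TIPARP* was above both lines, *CYP1B1* was above the line for the control alone, and *CYP1A2* had no peak.

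Set in order by fold enrichment in the control library, the strongest promoter peaks were those of *TIPARP* (15.6), *CYP1B1* (11.7), *AHR* (9.97), *AHRR* (8.47), *CYP1A1* (7.69), *NQO1* (6.26) and *ARNT* (3.80). In the IFN-γ library the order was *TIPARP* (13.1), *AHR* (7.25), *CYP1A1* (7.08), *CYP1B1* (6.0), *ARNT* (5.91), *AHRR* (5.66) and *NQO1* (5.23). *TIPARP* led in both, while under IFN-γ the 6 genes behind it lay between 5.23 and 7.25, on 20 to 32 fragments each. The depth-scaled ratios of these 7 peaks ran from 0.639 to 1.37 with a median of 0.843, against 0.893 over all 13997 shared promoter pairs. None of the 7 intervals lay above 1 and none below 1, where 7.88% of all shared promoter pairs lay above and 11.5% below.

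**Figure D2:**
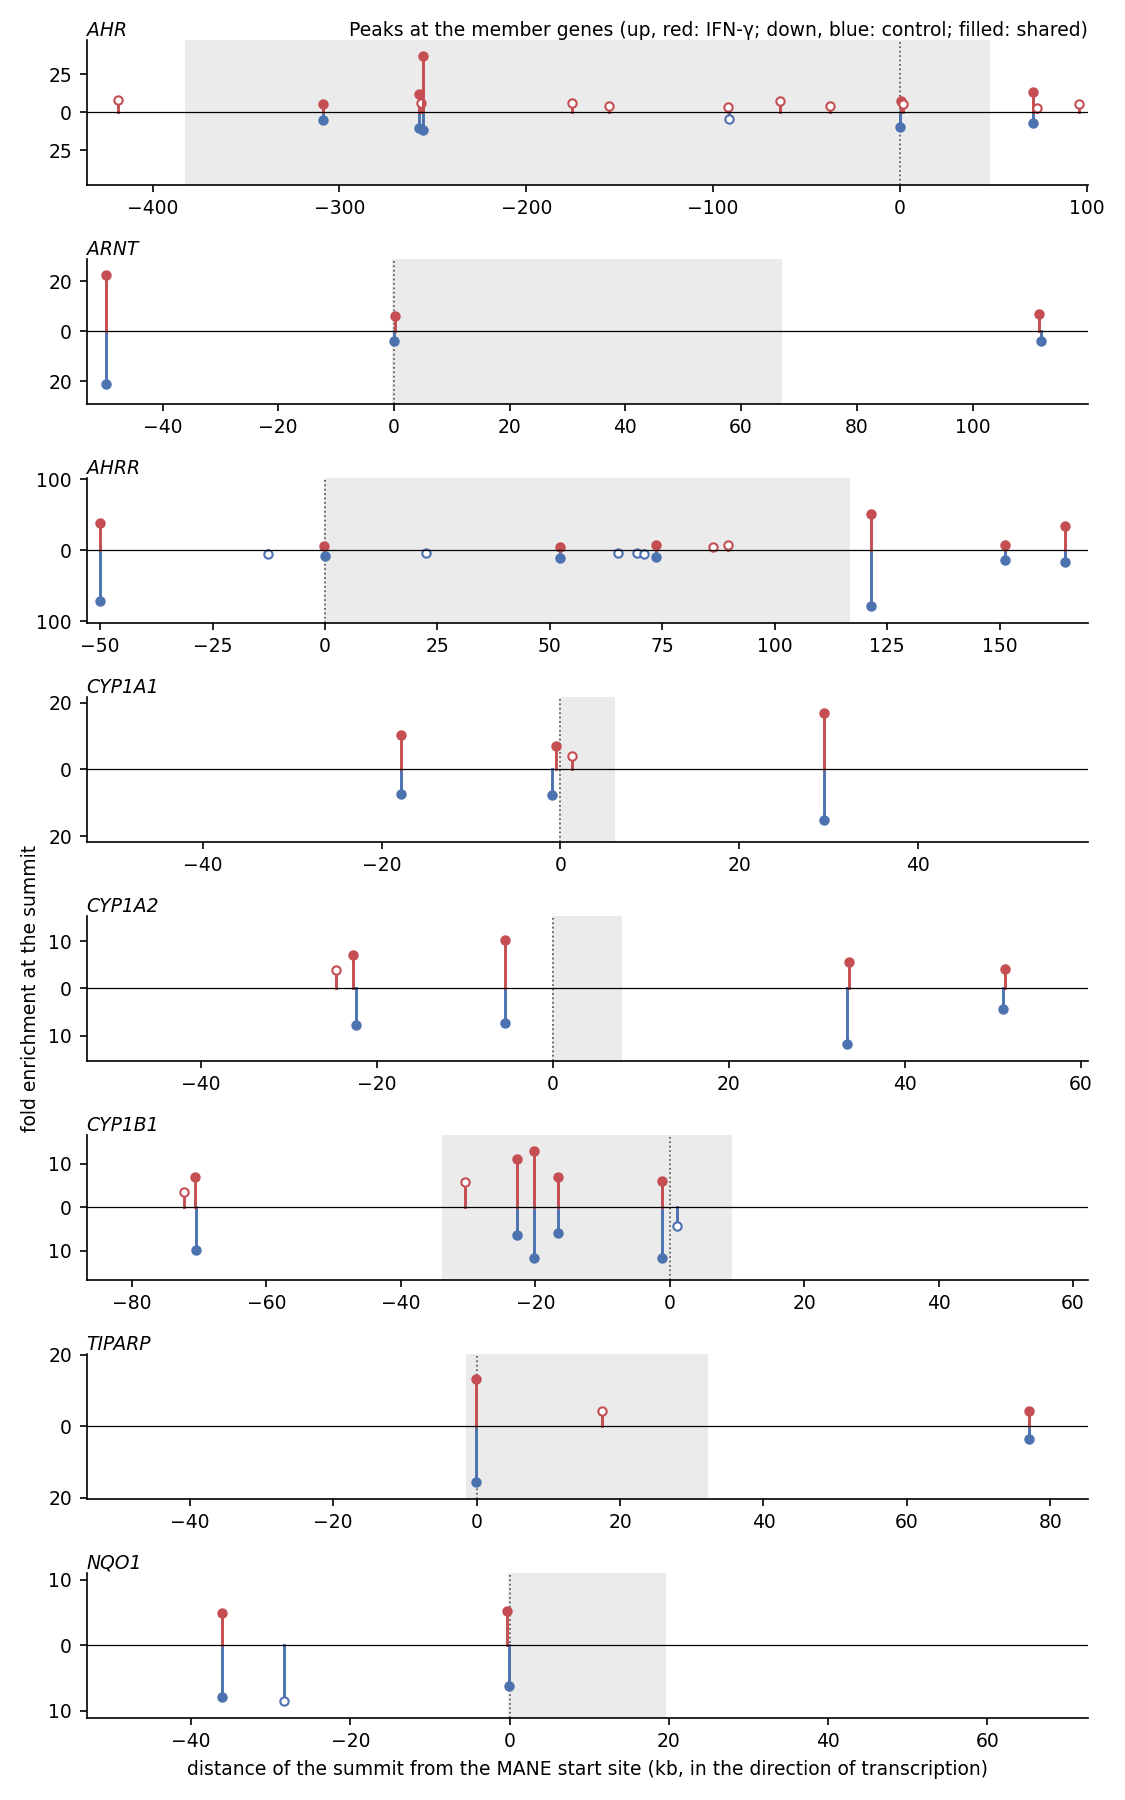
Peaks at each of the 8 genes by the distance of the summit from the MANE Select start site (kb, positive downstream), with fold enrichment upward for the IFN-γ library (red) and downward for the control library (blue). Filled circles are shared peaks, open circles are peaks of 1 list, and grey shading is the annotated gene. *AHR* has 15 red and 6 blue peaks, of which 9 and 4 lie in its long upstream transcripts.

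*AHR* (ENSG00000106546), the receptor itself, lies at chr7:16916359-17346152 of GRCh38 on the plus strand. Its annotated span of 429.8 kb is mostly due to transcripts that begin up to 382 kb upstream of the MANE Select start site at 17298652, the reference transcript's start, and the MANE transcript alone spans 47.5 kb. The promoter is shown as the 150 bases before that start, chr7:17298502-17298651 on the plus strand, with GGAA cores in capitals, because the control peak covers them:
AHR promoter: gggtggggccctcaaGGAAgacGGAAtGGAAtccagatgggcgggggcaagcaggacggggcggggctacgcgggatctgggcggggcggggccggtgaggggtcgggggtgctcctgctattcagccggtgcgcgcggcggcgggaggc

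At this promoter the control peak, chr7:17298447-17299464, had a fold enrichment of 9.97 and a pileup of 29 fragments. The IFN-γ peak, chr7:17298628-17299482, had a fold enrichment of 7.25 and a pileup of 27 fragments. The depth-scaled ratio was 0.639 (0.364 to 1.12), so the interval held 1. The summits lay 554 bp apart: the control summit was 129 bp downstream of the start, in the untranslated part of exon 1, and the IFN-γ summit was 683 bp downstream, in intron 1. A second IFN-γ peak in intron 1, chr7:17299848-17300339, rested on 15 fragments with a fold of 5.31 and had no control counterpart. The *AHR* promoter peak was stronger than those of 51.6% of coding genes with a promoter peak in the control library and of 38.6% in the IFN-γ library, which puts it near the middle.

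The *AHR* window held 6 control peaks and 15 IFN-γ peaks, the largest gap among the 8 genes, and 10 of the 15 had no control counterpart. Over the whole IFN-γ list, 15451 of 39654 peaks had none. Outside any promoter, 11140 IFN-γ peaks had none and 9887 had one, and 6 of the 10 at *AHR* lay outside any promoter. The 10 at *AHR* were weak to moderate, with folds from 2.86 to 7.89 and pileups from 8 to 26 fragments, or 5.49 to 17.9 fragments at the control depth. With the IFN-γ list cut to the 30819 strongest peaks, the length of the control list, 12 *AHR* peaks were left beside the 6 control peaks. With the window drawn around the MANE transcript, a setting chosen after the data were seen, the counts were 2 and 6.

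The strongest *AHR* peak was far from the promoter. It lay 255 kb upstream of the MANE start, inside the long transcripts and the non-coding gene ENSG00000237773, at chr7:17043121-17043726 in the control library and chr7:17043227-17043841 in the IFN-γ library. The control summit had 39 fragments and a fold of 11.96, and the IFN-γ summit had 113 fragments and a fold of 36.8, over backgrounds of 2.35 and 2.097 fragments. Its rank by −log10 p moved from 4683 to 748. The depth-scaled ratio was 1.99 (1.37 to 2.94), above 1, as in 19% of the 9898 shared pairs outside any promoter (distal pairs), whose median was 1.24. The interval lay above this median, and 86.5% of the distal pairs had this ratio or a lower one. The peak was singled out after its values were seen, from 29 shared peaks. The site is a GGAA repeat on the minus strand, which reads as TTCC on the plus strand. It is shown for 100 bases either side of the IFN-γ summit, chr7:17043427-17043627, plus strand, with the cores in capitals:
AHR 255 kb upstream: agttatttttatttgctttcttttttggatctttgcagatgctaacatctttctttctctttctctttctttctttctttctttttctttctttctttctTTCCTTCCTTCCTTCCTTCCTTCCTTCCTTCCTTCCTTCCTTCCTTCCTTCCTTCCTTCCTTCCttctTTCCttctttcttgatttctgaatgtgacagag

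This stretch held 17 GGAA cores, all on the minus strand, 16 of them in 1 unbroken run. Runs of at least 4 units lay within 100 bp of the summit of 6.94% of all control peaks and 10.8% of all IFN-γ peaks. A neighbouring shared peak 257 kb upstream, chr7:17041271-17041628 in the control library, had 32 and 55 fragments, a ratio of 1.18 (0.750 to 1.89) and 1 ETS octamer (CAGGAAGT), but no repeat. A second repeat site in the window was present in the IFN-γ list alone: the peak chr7:16879621-16880184, with a fold of 7.89 and 19 fragments, lies in *AGR3*, and runs of 4 and 5 units stood within 100 bp of its summit.

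Downstream of *AHR*, 71.5 kb from the MANE start and inside the gene ENSG00000283321, a shared peak had the highest ratio of all those at the 8 genes. It lay at chr7:17370006-17370389 with 16 fragments in the control library and at chr7:17369818-17370452 with 54 fragments in the IFN-γ library, and the folds were 7.26 and 13.1. The ratio was 2.32 (1.31 to 4.34), and the summits were 1 bp apart. The peak counts as a promoter pair only because it reaches within 3 kb of a copy of the small RNA gene *SNORA63*. Of the promoter pairs, 97.5% had this ratio or a lower one. The 95th percentile of the ratio was 1.95 over promoter pairs but 2.48 over distal pairs, so among the latter the peak would be less extreme. It was singled out after its values were seen, from 29 shared peaks. Around the summit, chr7:17370098-17370298, plus strand, there were 3 single GGAA cores, in capitals, and no run, unlike the upstream site:
AHR 71.5 kb downstream: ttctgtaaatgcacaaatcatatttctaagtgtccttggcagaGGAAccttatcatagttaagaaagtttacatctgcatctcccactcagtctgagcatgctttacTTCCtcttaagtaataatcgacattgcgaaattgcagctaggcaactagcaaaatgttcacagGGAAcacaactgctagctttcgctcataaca

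*ARNT* (ENSG00000143437, chr1:150809713-150876708, minus strand), the partner that the receptor needs to bind DNA, had the weakest promoter peak of the 7 genes in the control library. Its fold was 3.80 there, on 13 fragments, and 5.91 in the IFN-γ library, on 20 fragments. The depth-scaled ratio was 1.06 (0.50 to 2.31), so the interval held 1, but the summits lay 237 bp apart. The control peak was stronger than only 3.98% of coding genes' promoter peaks, and at a q-value under 1e-05 it was no longer in the list. The IFN-γ summit, 163 bp into the gene, had 0 GGAA cores within 100 bp, the only such summit of the 45 in that library. The other peaks within 50 kb belonged to neighbours: *SETDB1*, a histone methyltransferase gene, had 55 and 116 fragments at its start, a ratio of 1.45 (1.04 to 2.03), and *CTSS*, the gene of cathepsin S, had 9 and 26 fragments, a ratio of 1.98 (0.901 to 4.81). The *CTSS* summits lay 291 bp apart.

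*AHRR* (ENSG00000063438, chr5:321714-438291, plus strand) encodes a repressor that competes with the receptor for ARNT and is itself a target. Its window held 12 control peaks and 9 IFN-γ peaks. *NQO1*, with 3 and 2, was the only other gene with more control than IFN-γ peaks. The promoter peak, with its summit 93 bp and 124 bp upstream of the start, had 22 and 27 fragments, folds of 8.47 and 5.66 and a ratio of 0.843 (0.462 to 1.55). A weak control peak, chr5:344028-344333, lay at an internal start with a fold of 3.42 and had no counterpart.

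In intron 3 of *AHRR*, 52.2 kb from the start, lay the shared peak whose ratio was the lowest at any of the 8 genes. In the control library it spanned chr5:373497-374100, with 28 fragments over a background of 1.53 and a fold of 11.5. In the IFN-γ library it spanned chr5:373757-374075, with 17 fragments over a background of 3.40 and a fold of 4.09. The summits lay 4 bp apart, and the pileup was lower in the deeper library. The depth-scaled ratio was 0.417 (0.214 to 0.789). Among the 9898 distal pairs, 1.62% had an interval below 1, and 0.253% had a ratio as low as this or lower. The peak was singled out after its values were seen, from 29 shared peaks, and the local background rose between the libraries together with the fall in pileup; its part in the ratio was not tested. It is shown around the control summit, chr5:373775-373975, plus strand, with the XRE cores of both strands in capitals:
AHRR intron 3: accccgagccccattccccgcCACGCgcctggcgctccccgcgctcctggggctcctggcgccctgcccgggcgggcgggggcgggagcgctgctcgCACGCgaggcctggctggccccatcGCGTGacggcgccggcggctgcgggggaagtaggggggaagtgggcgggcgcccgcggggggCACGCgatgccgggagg

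This stretch held 4 XRE cores, 1 on the plus and 3 on the minus strand, the highest number at any summit described here. It also held 3 single GGAA cores, and 82.1% of the bases were G or C. An XRE core stood within 100 bp of the summit of 13.3% of all distal control peaks and 9.94% of all distal IFN-γ peaks. A second shared *AHRR* intron peak, in intron 4, 73.7 kb from the start, had 26 and 35 fragments, a ratio of 0.925 (0.541 to 1.60) and no XRE core.

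The window around *AHRR* held the strongest peaks of the whole set, those at the *PDCD6* and *EXOC3* promoters. It also held weaker peaks at *PP7080* and *SLC9A3*. The *PDCD6* promoter, 50.1 kb upstream and the start of a *PDCD6-AHRR* readthrough transcript, had 190 and 259 fragments and folds of 71.4 and 39.0, with a ratio of 0.936 (0.773 to 1.14). The promoter shared by *EXOC3* and *EXOC3-AS1* had 214 and 220 fragments and a ratio of 0.706 (0.582 to 0.856), and the start of the non-coding *PP7080* had 33 and 28 fragments and a ratio of 0.583 (0.339 to 0.994). In *SLC9A3*, a sodium-proton exchanger gene, a distal peak went the other way, with 46 and 133 fragments and a ratio of 1.99 (1.41 to 2.84).

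*CYP1A1* (ENSG00000140465, chr15:74719542-74725536, minus strand) and *CYP1A2* (ENSG00000140505, chr15:74748845-74756607, plus strand) encode monooxygenases that oxidise aromatic hydrocarbons and drugs, and they lie head to head, transcribed away from each other. The summits of the *CYP1A1* peak lay upstream of the start, where its XREs are known to lie. It had 17 fragments and a fold of 7.69 in the control library, at chr15:74725519-74726668, and 20 fragments and a fold of 7.08 in the IFN-γ library, at chr15:74725946-74726495. The ratio was 0.808 (0.402 to 1.64). The summits were 354 bp apart, 893 bp upstream of the MANE start in the control library and 539 bp upstream in the IFN-γ library. Both are shown, 100 bases either side on the plus strand with the XRE cores in capitals, the first at chr15:74726321-74726521 and the second at chr15:74725967-74726167:
CYP1A1 upstream, control summit: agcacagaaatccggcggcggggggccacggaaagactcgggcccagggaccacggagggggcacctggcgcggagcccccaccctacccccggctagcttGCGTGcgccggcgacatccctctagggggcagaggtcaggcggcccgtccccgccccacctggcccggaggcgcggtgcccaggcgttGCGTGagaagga
CYP1A1 upstream, IFN-γ summit: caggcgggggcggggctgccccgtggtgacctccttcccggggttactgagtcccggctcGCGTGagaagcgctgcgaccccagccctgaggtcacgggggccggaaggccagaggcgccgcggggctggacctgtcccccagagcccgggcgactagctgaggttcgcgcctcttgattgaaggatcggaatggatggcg

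The control window held 2 XRE cores and 1 GGAA core, and the IFN-γ window 1 XRE core and 3 GGAA cores. Among all promoter peaks of the control and IFN-γ lists, 32.8% and 27.8% had an XRE core within 100 bp of the summit. A further peak in *CYP1A1* intron 1, chr15:74724085-74724396, was in the IFN-γ list alone, with 13 fragments and a fold of 3.86.

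*CYP1A2* had no peak within 3 kb of its single start in either library. The nearest peak was a shared distal one 5.44 kb and 5.45 kb upstream, in the interval between the 2 genes. It spanned chr15:74743246-74743493 with 16 fragments and a fold of 7.26 in the control library, and chr15:74743130-74743568 with 25 fragments and a fold of 10.3 in the IFN-γ library. The ratio was 1.07 (0.551 to 2.15). Like the upstream *AHR* site it is a GGAA repeat, here on the plus strand, and is shown around the IFN-γ summit, chr15:74743291-74743491, with the cores in capitals:
CYP1A1-CYP1A2 interval: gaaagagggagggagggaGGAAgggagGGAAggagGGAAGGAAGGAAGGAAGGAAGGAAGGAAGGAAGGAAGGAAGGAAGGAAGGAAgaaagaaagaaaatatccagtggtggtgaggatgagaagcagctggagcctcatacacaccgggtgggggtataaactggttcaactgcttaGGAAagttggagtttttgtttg

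It held 16 GGAA cores, 13 of them in 1 run, and no XRE core. The repeat sites of *AHR* and *CYP1A2* carried about as many cores (17 and 16) but 113 and 25 fragments in the IFN-γ library. Beyond *CYP1A2*, the promoter of the kinase gene *CSK* had 26 and 19 fragments, a ratio of 0.502 (0.263 to 0.943), and the promoter of *EDC3* beyond *CYP1A1* had 49 and 75 fragments, a ratio of 1.05 (0.724 to 1.54). The *CSK* summits lay 176 bp apart.

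*CYP1B1* (ENSG00000138061, chr2:38066973-38109902, minus strand), a monooxygenase that also hydroxylates oestrogens, had its promoter peak 1.20 kb and 1.17 kb upstream of the MANE start. The control summit had 23 fragments and a fold of 11.7, and the IFN-γ summit had 22 fragments and a fold of 6.0. The folds thus differed more than the pileups, and the interval of the ratio, 0.657 (0.349 to 1.23), held 1. Within the longer annotated transcripts, which overlap the antisense gene *CYP1B1-AS1*, 3 more shared peaks lay 16.6, 20.2 and 22.7 kb upstream. Their pileups were 11 and 20, 26 and 48, and 15 and 34 fragments, and their ratios were 1.25 (0.570 to 2.89), 1.27 (0.771 to 2.13) and 1.56 (0.825 to 3.08). All 3 point estimates were above 1 and the promoter's was below it, but all 4 intervals held 1. The peaks at 20.2 kb had 2 XRE cores within 100 bp of the summit in each library, and the peak at 30.5 kb, in the IFN-γ list alone, had 1 ETS octamer and 14 fragments. A control peak in exon 2, chr2:38074878-38075242, had 8 fragments and no counterpart.

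*TIPARP* (ENSG00000163659, chr3:156673235-156706770, plus strand) encodes an enzyme that ADP-ribosylates the receptor and marks it for breakdown. Its promoter peak was the strongest of the 8 genes, with 46 fragments and a fold of 15.6 at chr3:156674014-156675956 in the control library and 68 fragments and a fold of 13.1 at chr3:156674010-156675949 in the IFN-γ library. It ranked 3160 and 4172 by −log10 p, and was stronger than the promoter peaks of 74.6% and 75.8% of coding genes that had one. The ratio was 1.02 (0.688 to 1.51), so the site was level at equal depth, within the counting error. The summits sat 31 bp and 10 bp upstream of the MANE start, in the stretch chr3:156674440-156674589, plus strand, shown with its GGAA cores in capitals:
TIPARP promoter: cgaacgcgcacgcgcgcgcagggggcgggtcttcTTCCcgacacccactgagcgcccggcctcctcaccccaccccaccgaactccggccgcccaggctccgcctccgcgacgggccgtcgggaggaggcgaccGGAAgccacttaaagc

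It held 1 core on each strand and 1 XRE core, and the core nearest the start was centred +16.5 bp from the control summit and -4.5 bp from the IFN-γ summit. The coding genes whose strongest promoter peaks were likest in log2 fold over both libraries were *UPF3A* (15.7 and 12.9), *MKLN1* (15.5 and 12.9) and *MUC12* (15.6 and 13.5), a likeness over 2 values. Elsewhere in the window a weak IFN-γ peak in *TIPARP* intron 2 had 14 fragments, and the start of *LINC00886* had 11 and 14.

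*NQO1* (ENSG00000181019, chr16:69706996-69726668, minus strand) encodes a quinone reductase under the control of both the receptor and NRF2. Its promoter had 16 fragments and a fold of 6.26 in the control library and 32 fragments and a fold of 5.23 in the IFN-γ library, the highest promoter ratio of the 7 genes at 1.37 (0.732 to 2.68). Its fold was thus lower under IFN-γ while its ratio was above 1, with a local background of 1.71 fragments in the control library and 5.31 in the other. The summits were 95 bp and 293 bp upstream of the MANE start, the second in the divergent transcript *NQO1-DT*. Of the neighbours, *NOB1* had a promoter peak in the control list alone, with 21 fragments, and *WWP2* had 23 and 20 fragments, a ratio of 0.597 (0.311 to 1.14).

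**Figure D3:**
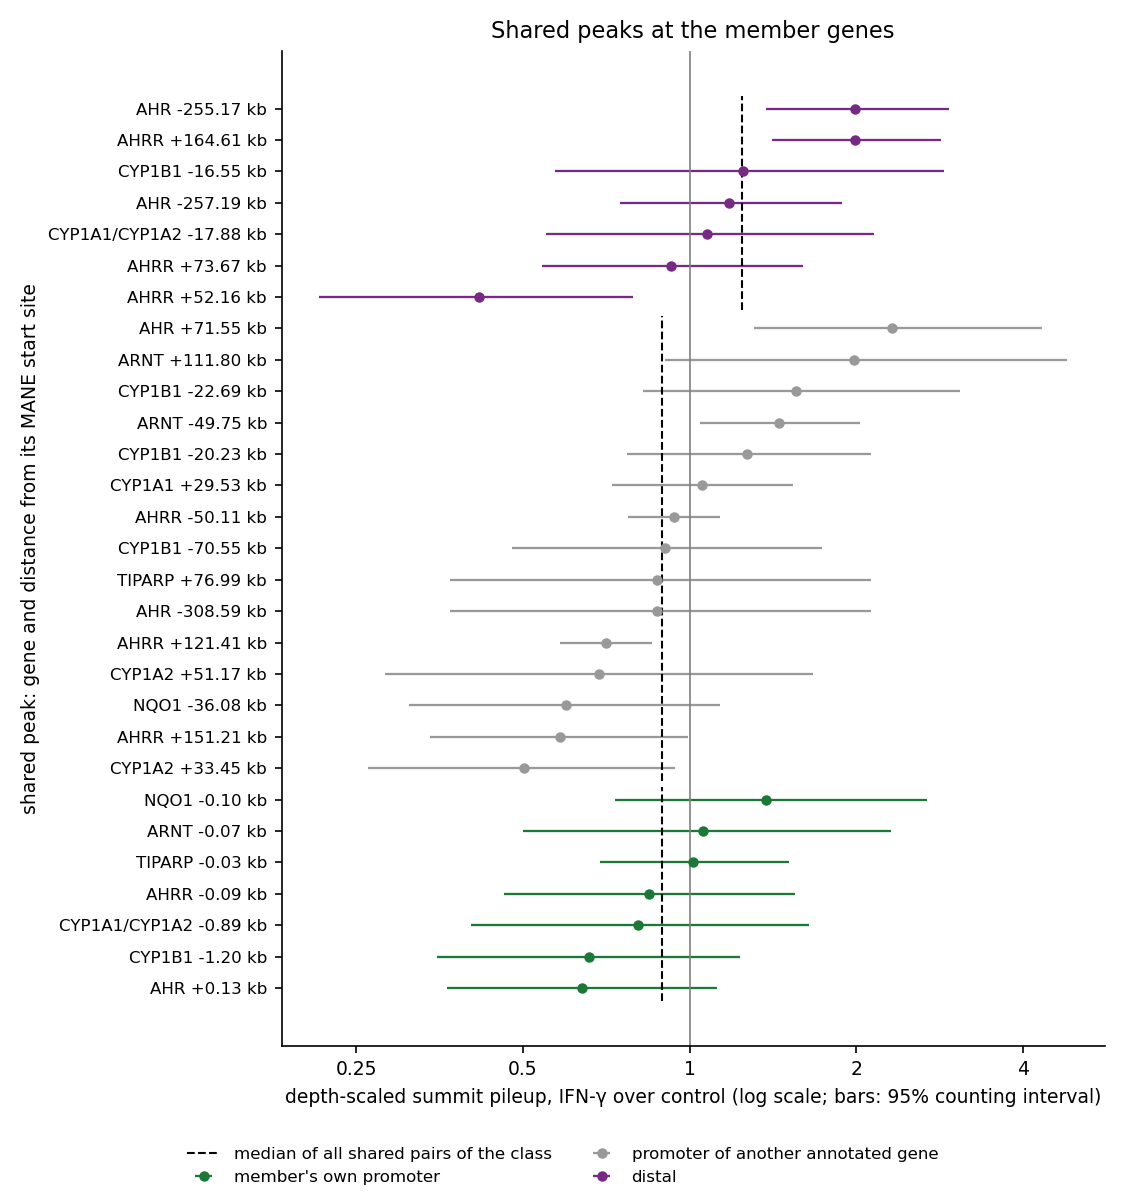
Depth-scaled IFN-γ over control pileup (log axis) at the 29 shared peaks, with exact 95% counting intervals, by class, and dashed lines at the medians of all shared promoter pairs (0.893) and distal pairs (1.24). All 7 own-promoter intervals (green) cross 1, the *AHR* peaks 255 kb upstream and 71.5 kb downstream lie above 1, and the *AHRR* intron 3 peak lies below it.

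Over the 29 shared peaks, 4 intervals lay above 1 and 4 below. Promoter pairs, the neighbours' included, numbered 22 with 2 above and 3 below, and a median of 0.889 beside 0.893 for all promoter pairs. The 7 distal pairs had 2 above and 1 below, and a median of 1.18 beside 1.24. As a group the sites at these genes sat at the level of their classes, with single peaks at either end. Without depth scaling 12 intervals lay above 1 and none below, so the split between directions rests on the scaling.

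**Figure D4:**
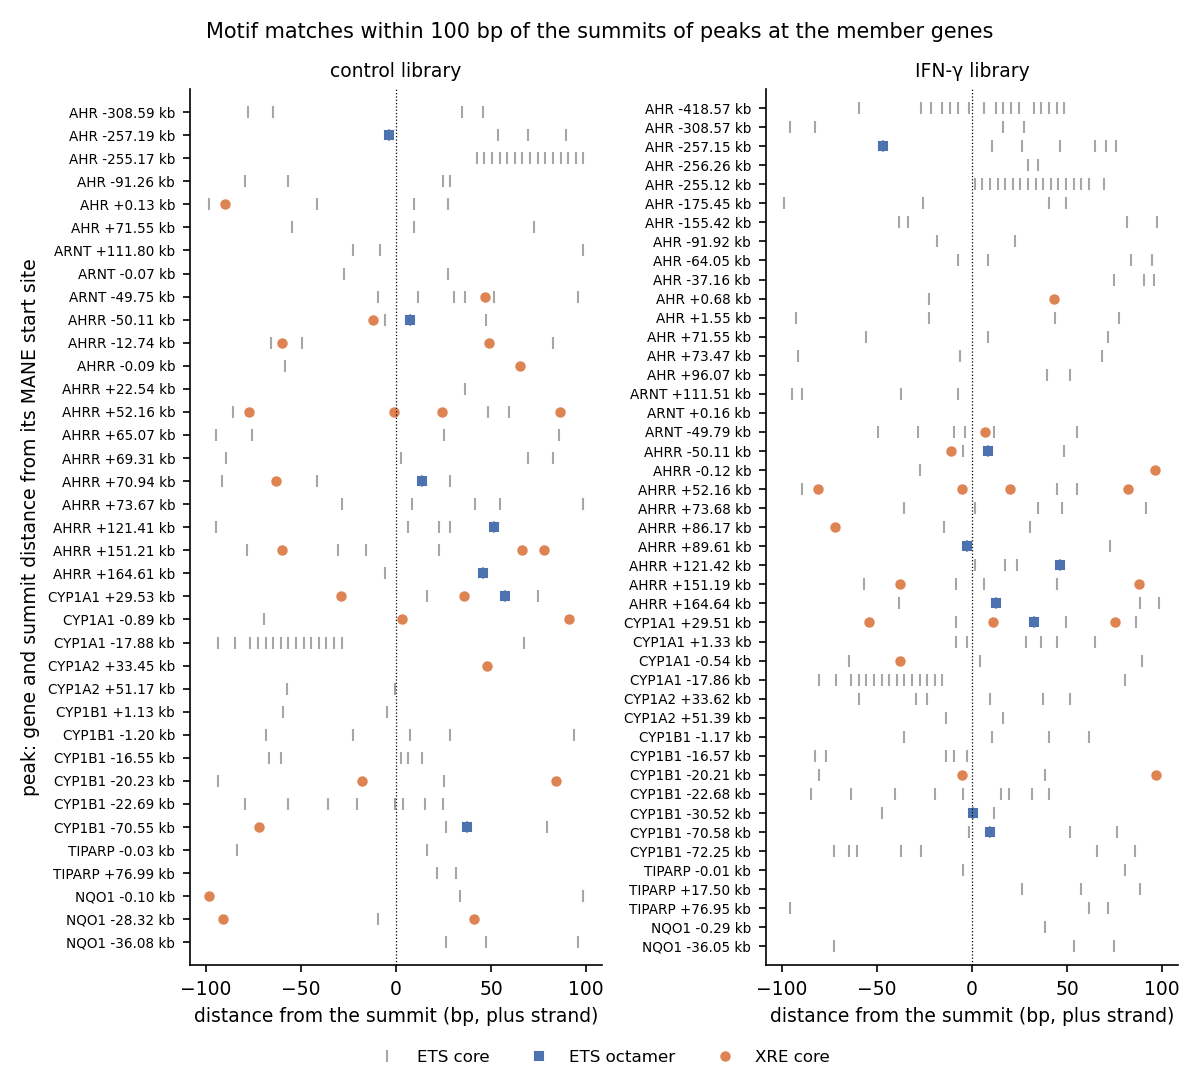
Positions of the ETS core (grey ticks), the ETS octamers (blue squares) and the XRE core (orange circles) within 100 bp of each summit at the 8 genes, by distance from the summit in bp, for the control (left) and IFN-γ (right) libraries. The long ladders of ticks are the GGAA repeats near *AHR*, *AGR3* and *CYP1A2*, and the *AHRR* peaks at +52.16 kb carry 4 circles each.

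The letters under the summits were compared with those under all peaks of the same list, in windows of 100 bp either side and on both strands. The ETS core GGAA was present at 36 of 37 control peaks and 44 of 45 IFN-γ peaks, against 96.1% and 97.9% of all peaks, and so does not set these genes apart. The longer ETS octamers, CAGGAAGT or CCGGAAGT, were present at 7 and 8 peaks, against 12.8% and 13.5% of all peaks. None of these lay at a promoter of the 8 genes: 0 of the 9 control and 0 of the 9 IFN-γ promoter peaks had one, where 13.4% and 15.0% of all promoter peaks did. With so few peaks, most of them shared between the lists, 0 of 9 is near these shares. It is no result about these promoters. The XRE core was present at 15 of 37 control peaks and 10 of 45 IFN-γ peaks, against 24.4% and 18.4% of all peaks. These counts include peaks at the promoters of neighbouring genes, such as *PDCD6* and *EDC3*. At the promoters of the 8 genes themselves, 4 and 3 of the 9 peaks had the XRE core, against 32.8% and 27.8% of all promoter peaks. Both octamers contain the core GGAA, while the XRE core is a separate short motif, rich in G and C, that is common at promoters. The AP-1 motif TGANTCA was found at 4 and 6 peaks (17.7% and 22.1% of all peaks), and the antioxidant response element core TGACNNNGC, bound by NRF2, at 5 and 3 (10.7% and 9.62%). No *NQO1* summit had the last of these. A match is a description of the letters and not a bound site.

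Around the receptor, a list of 29 further genes of the pathway was examined for promoter peaks. In the control library 24 (82.8%) had one and in the IFN-γ library 23 (79.3%), and these 23 had one in both, above the 61.9% and 59.7% of all coding genes. The list was chosen with earlier results of these data known. All 4 genes listed for the cytosolic complex (*HSP90AA1*, *HSP90AB1*, *PTGES3*, *SRC*), all 3 further bHLH-PAS genes (*ARNT2*, *HIF1A*, *BMAL1*), all 5 coactivator genes and all 4 transporter genes for kynurenine uptake had one in both libraries. Of the 8 other target genes 3 did. Those without a promoter peak in either library were *UGT1A1*, *UGT1A6*, *GSTA2*, *SERPINB2* and *EREG*. The first 3 encode conjugating enzymes of the liver and gut.

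*NFE2L2*, the gene of NRF2 and itself a receptor target, had the strongest promoter peak of the list, with 143 and 147 fragments, folds of 70.1 and 24.8, and ranks of 94 and 669. Next by mean rank were *EP300*, a histone acetyltransferase and coactivator gene, with folds of 24.9 and 25.8, and *HSP90AB1*, with folds of 17.0 and 32.1. *KEAP1*, which encodes the inhibitor of NRF2, was the only gene with a promoter peak in 1 library, and that control peak rested on 6 fragments with a fold of 3.41. By −log10 p, the promoter peaks of *NFE2L2* and *EP300* were stronger in each library than those of the 8 genes, *TIPARP* included. By fold, so were those of *HSP90AB1* and other genes of the list.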

How the data were processed

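Peaks were taken from 2 Flag-FLI1 ChIP-seq libraries of HK1 cells, 1 per condition. The inputs are not analysed here. According to the methods and the submitters' processing notes, the authors' pipeline was Cutadapt 1.18 for trimming, Bowtie2 2.3.4.1 for alignment of the read pairs to GRCh38, Picard for duplicate removal, MACS2 2.1.2 for peaks (p-value below 0.01) and ChIPseeker for annotation. Use of the input in calling and a mapping quality filter, which bears on the GGAA repeats, are not given in the sources used here. The deposited lists give, per peak, the authors' fold enrichment (a ratio), −log10 p-value, −log10 q-value, a score (not used) and the summit's offset. The lowest −log10 q was 1.30 and 1.32.

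Coordinates were made 1-based. Pileups were solved from fold and −log10 p with a largest relative error of 6.21e-06. The lists give no read totals, so depth was taken from the lowest backgrounds, 1.06 and 1.54 fragments. Genes came from GENCODE 44 and sequences from the GRCh38 reference, whose chromosome names and lengths fitted all peaks. The 8 genes and the list of 29 were chosen with earlier results of these data known, and 1 further gene is not reported here. Named besides the 8 genes were, of that list, the 3 with the strongest promoter peaks by mean rank, those with a peak in 1 library and those with none, the gene nearest to or holding each peak described, and the 3 genes likest to *TIPARP*. The pileup recovery, the overlap and nearest-start searches, the search for a planted motif and the coverage of the interval were tested on simulated data. The other steps were not. Alternatives were other windows, TSS sets, q-value cutoffs, lists of equal length, overlap rules, depth estimates, motif windows and ranking by fold. Python 3.11.15, numpy 2.4.6, scipy 1.17.1, pandas 2.3.3 and matplotlib 3.10.9 were used.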

Additional observations from a re-analysis of the deposited data

How the results depend on the processing

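No paired analysis was possible because there was 1 library for each condition. The count of genes with a promoter peak was between 6 and 8 in each library under every alternative tried. Narrowing the windows to 10 kb took the peaks at the 8 genes from 37 to 23 in the control library and from 45 to 29 in the IFN-γ library. With lists of equal length the IFN-γ count was 36, beside 37 in the control library. Peaks with an XRE core went from 15 to 8 in the control library within 50 bp of the summit, and from 10 to 17 in the IFN-γ library over whole peaks. Control peaks with a GGAA run went from 2 to 1 within 50 bp. Without depth scaling the intervals above 1 went from 4 to 12 and those below 1 from 4 to 0, and the pair at the *EXOC3* promoter turned from 0.706 to 1.03. Unscaled, the *AHRR* intron 3 pair was at 0.607, and with the depth taken from the median of all shared peaks at 0.408. The other 53 alternative values of counts and median ranks stayed within 1.5 times of those given. Ranked by fold, the *TIPARP* promoter peak of the IFN-γ library went from 4172 to 6318. The promoter peaks compared rested on 13 to 68 fragments, and even the narrowest of their intervals, that of *TIPARP*, ran from 0.688 to 1.51. With no replicate library a difference between treatments and one between cultures cannot be told apart.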
